A study of Mus musculus with 50 samples.

Results

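Interferon response genes are genes that cells switch on when they sense an interferon, and 41 of them were followed here among the 56691 genes of the deposited table. The rule lists gene symbols and holds no measured value, but the list was drawn up with earlier results of these data known. Of the 41 genes, 10 belong to the Ifit, Mx and Oas families and are called type I genes below, and 11 are Gbp2, Gbp3, Gbp4, Gbp5, Gbp6, Gbp7, Gbp9, Irgm1, Irgm2, Igtp and Cxcl9, called type II genes. The other 20 answer to both kinds of interferon or regulate the response. The samples are colons of 50 BALB/c mice, 1 poly(A) RNA library per mouse, in 5 groups of 10. Mice with colitis from TNBS (trinitrobenzene sulfonic acid, a hapten that provokes inflammation in the gut wall) received vehicle or A1007 at 10, 30 or 90 mpk, a unit printed as the labels give it, and sham mice were the controls. A1007, by the series title an AhR agonist given by mouth and enriched in the gut, targets a ligand-activated transcription factor, the aryl hydrocarbon receptor. All mice share the strain and 1 labelled batch, and the labels give no engineered allele, age or sex. The series text places the sampling in the distal colon.

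Type I interferons (interferon alpha and beta) bind the receptor of Ifnar1 and Ifnar2 and activate a complex that includes Stat2 and Irf9 and binds a DNA motif called the ISRE. Type II interferon (interferon gamma, from T and NK cells) binds the receptor of Ifngr1 and Ifngr2 and acts through the GAS motif, raising Irf1. Ifit, Mx and Oas proteins block viral RNA and viral replication, whereas Gbp and Irgm proteins are GTPases that attack the vacuoles of intracellular microbes. The division is one of degree, because many of these genes answer to either interferon.

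Some promoters of the genes carry letters of the ISRE, of the GAS motif or of both, and others carry neither. RefSeq windows on GRCm38.p6, from 250 bases before to 50 bases after a gene's start, were at hand for 30 of the 41 genes, and were searched on both strands for GAAA, any 2 bases and GAAA (ISRE), for TTC, any 3 bases and GAA (GAS) and for GCGTG (the core of the AhR's response element). Overlapping matches of 1 motif or of ISRE and GAS were each counted. ISRE letters stood in 18 of 30 members, against 3.99% of all 27025 genes with a window. Among type I genes 4 of 7 had them and among type II genes 7 of 8. GAS letters stood in 9 of 30 members, among them 2 of 7 type I and 4 of 8 type II genes, against 9.55% of all genes. Cxcl9, Irf7 and Irf9 were among the searched members with neither motif. The AhR core stood in 10 of 30 members, against 35.2% of all genes. A match describes letters in a window and no binding was measured. A gene with several starts counted once if any of its windows matched. Mx1, Mx2, Oas2, Gbp4, Gbp6, Gbp9, Usp18, Dhx58, Iigp1, Parp14 and Zbp1 were not searched. The 250 bases before the start are shown for the type I gene Ifit1, for the member that differed most clearly between vehicle and sham mice (Bst2) and for 2 type II genes of the dose comparisons (Gbp3 and Gbp5), with ISRE and GAS letters in capitals. They lie on GRCm38.p6 at chr19:34640639-34640888 (plus strand), chr8:71537473-71537722 (minus strand), chr3:142559794-142560043 (plus strand) and chr3:142496684-142496933 (plus strand).
Ifit1: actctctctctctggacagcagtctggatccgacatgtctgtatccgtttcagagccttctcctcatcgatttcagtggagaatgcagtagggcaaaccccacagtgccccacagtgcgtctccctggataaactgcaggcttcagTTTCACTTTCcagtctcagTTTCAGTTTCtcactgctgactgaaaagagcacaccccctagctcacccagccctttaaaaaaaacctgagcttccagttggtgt
Bst2: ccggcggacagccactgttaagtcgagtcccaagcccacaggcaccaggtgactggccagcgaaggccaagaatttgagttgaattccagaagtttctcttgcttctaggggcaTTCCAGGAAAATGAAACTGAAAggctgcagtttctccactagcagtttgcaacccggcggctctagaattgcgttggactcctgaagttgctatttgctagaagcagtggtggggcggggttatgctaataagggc
Gbp3: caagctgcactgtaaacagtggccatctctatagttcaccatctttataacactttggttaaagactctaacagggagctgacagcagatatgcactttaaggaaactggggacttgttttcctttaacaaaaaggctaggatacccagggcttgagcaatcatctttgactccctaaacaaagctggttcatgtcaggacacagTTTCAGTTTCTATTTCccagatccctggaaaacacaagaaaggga
Gbp5: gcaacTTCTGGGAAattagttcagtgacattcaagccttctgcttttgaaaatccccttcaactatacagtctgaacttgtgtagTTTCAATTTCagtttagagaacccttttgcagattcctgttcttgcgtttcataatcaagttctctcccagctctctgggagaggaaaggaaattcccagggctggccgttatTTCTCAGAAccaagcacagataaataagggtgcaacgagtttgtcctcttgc
In Bst2 the capitals hold 1 GAS match that runs into 2 overlapping ISRE matches. In Gbp3 the capitals are 2 overlapping ISRE matches, in Ifit1 they are 2 separate ones, and in Gbp5 they are 1 ISRE match between 2 GAS matches.

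Levels are given as the authors' FPKM, read counts scaled to exon length and library size, as the lowest, the median and the highest of the 10 mice of a group. Library totals ran from 14373337 to 20446967 counts, so that counting error is small for most members. Of the 41 members 40 passed the filter on low counts in every comparison, and Oas1a, with 21 counts over all 50 mice, was not tested. A fold change is a log2 fold change, and a gene is called when its adjusted p is under 0.05. Summed markers of colon epithelium were high in every library, at 14250 to 30290 CPM (each library's counts scaled to a common total). Pancreatic acinar markers passed 100 CPM in 8 libraries, 4 of vehicle, 1 of 10 mpk, 1 of 30 mpk, 2 of 90 mpk and 0 of sham mice, and results are repeated without them. The 4 vehicle libraries also held the group's highest summed macrophage markers, 658 to 878 CPM, against at most 481 CPM in the others. Their epithelial sums, 16830 to 18970 CPM, were the group's lowest. Leaving them out thus removes both traits at once, and which of them matters was not tested. Some members share sequence with a neighbour that counting could split. The share of 100-base words found in another gene was 31.7% for Ifit3, 64.5% for Gbp6 and 10% for Gbp7, and no more than 5.2% for the other tested members. Gbp4 and Gbp9 overlap on the same strand, as do Igtp and Irgm2, Irf9 and Rnf31, Parp14 and Gm49730, and Ifi47 and Olfr56. The strand setting is not given in the sources used here, so that Irf7, Irf1, Cxcl10, Dhx58, Oas2, Oasl1, Usp18, Ifi35 and Ifi47 cannot be told apart from genes on the opposite strand that overlap them. The values of all these genes are uncertain to that extent.

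The interferons themselves were near or below detection in this bulk tissue. Over the 21 ligand genes (the alpha, beta, lambda and other type I interferons with Ifng) the libraries held 0 to 8 counts each, and 84 of the 137 counts came from Ifng, the gene of interferon gamma. Ifng had 13 counts over 10 vehicle mice, 10 at 10 mpk, 25 at 30 mpk, 15 at 90 mpk and 21 over 10 sham mice. Ifnb1, the gene of interferon beta, had 1 count in all 50 libraries. A count of 0 allows up to 3 counts, which is 0.147 to 0.209 CPM in these libraries, for counting error only. No ligand gene was deep enough to test.

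The receptor genes were well measured, and 3 of 6 were higher in vehicle than in sham mice. Among all genes tested in that comparison 18.1% were called higher and 14.6% lower. Ifnar2, the long-tailed chain of the type I receptor, had a lowest, median and highest level of 6.52, 8.66 and 15.7 FPKM in vehicle mice, against 3.46, 4.495 and 5.08 FPKM in sham mice. The 2 groups did not overlap (log2 fold change 1.13, SE 0.15, adjusted p = 1.5e-05). Ifnar1, the other chain, rose by less (0.22, SE 0.08, adjusted p = 0.0284), as did Il10rb, a chain that the lambda interferon receptor shares with others (0.13, SE 0.05, adjusted p = 0.0477). Il10rb lost its call with all 50 mice in 1 fit (adjusted p = 0.0949) and without the acinar libraries (adjusted p = 0.116), where Ifnar2 had 0.75. The type II receptor genes were abundant and not called, Ifngr1 with a median of 78.7 FPKM in vehicle and 86.7 FPKM in sham mice, and Ifngr2 with medians of 39.4 and 40.1 FPKM in vehicle and sham mice.

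Few interferon response genes passed the test between vehicle and sham mice. In vehicle against sham mice 2 of 40 tested members rose, Bst2 and Trim30a, and 0 fell in edgeR's quasi-likelihood test, while 32.7% of all 16820 genes tested were called, 18.1% higher and 14.6% lower. At an unadjusted p under 0.05, 5 members stood out. The median log2 fold change was 0.14 over the 9 tested type I genes (range -0.35 to 0.88), 0.07 over the 11 type II genes (range -0.27 to 0.26) and 0.005 over all genes. Neither class had a called gene. The plot of fold changes shows that the intervals of type I genes are wide.

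Among the type I genes the 2 groups overlapped throughout. Ifit1, which binds RNA lacking the methyl marks of the cell's own caps, stood at 2.36, 6.58 and 33.1 FPKM (lowest, median, highest) in vehicle mice, against 4.68, 7.485 and 28.6 FPKM in sham mice. The vehicle group reached both lower and higher than the sham group, and the difference was far inside the spread (log2 fold change -0.06, SE 0.46, adjusted p = 0.925). Ifit3, a partner of Ifit1, stood at 1.64, 4.145 and 16.2 FPKM in vehicle mice and at 2.53, 3.575 and 12.75 FPKM in sham mice (0.31, adjusted p = 0.567). Oas2, which makes the signal that activates the antiviral nuclease RNase L, stood at 0.88, 2.02 and 8.32 FPKM in vehicle mice and at 0.57, 1.16 and 2.67 FPKM in sham mice. Its fold change was the highest of its class and missed the threshold (0.88, SE 0.36, adjusted p = 0.0682). Mx2, a dynamin-like antiviral GTPase, had 0.31, 0.835 and 3.38 FPKM in vehicle mice and 0.61, 0.845 and 2.53 FPKM in sham mice (0.46, adjusted p = 0.409). Oasl2, a relative of the Oas enzymes, had 3.03, 5.9 and 25.6 FPKM in vehicle mice and 4.41, 8.0 and 23.9 FPKM in sham mice (-0.35, adjusted p = 0.493). The medians of Ifit1 and Oasl2 were thus lower in vehicle mice although 1 vehicle mouse held the highest value.

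The type II genes overlapped in the same way. Gbp2, a guanylate-binding protein, stood at 9.35, 13.0 and 40.4 FPKM in vehicle mice and at 11.9, 14.3 and 25.6 FPKM in sham mice, giving a log2 fold change of 0.07 (SE 0.21, adjusted p = 0.822). For its relative Gbp4 the values were 1.07, 3.41 and 8.43 FPKM in vehicle and 2.83, 3.095 and 5.21 FPKM in sham mice (0.15, adjusted p = 0.626). Gbp5, which promotes inflammasome assembly, had 0.45, 1.155 and 3.02 FPKM in vehicle and 0.88, 1.13 and 1.9 FPKM in sham mice (0.07, adjusted p = 0.834). Each of these genes spread more widely in vehicle than in sham mice, downward as well as upward. Gbp6, the least abundant of the class, had 0.08, 0.225 and 0.54 FPKM in vehicle and 0.22, 0.31 and 0.48 FPKM in sham mice (-0.27, adjusted p = 0.444). Irgm1, a GTPase that guards against self-directed attack by its family, had 6.86, 7.83 and 18.8 FPKM in vehicle and 7.62, 8.57 and 18.1 FPKM in sham mice (-0.05, adjusted p = 0.867). Igtp, also known as Irgm3, had 5.58, 7.9 and 38.1 FPKM in vehicle and 5.72, 8.86 and 24.0 FPKM in sham mice (0.15, adjusted p = 0.767). Cxcl9, a chemokine that draws activated T cells, had 0.15, 0.975 and 7.29 FPKM in vehicle and 0.85, 1.07 and 3.74 FPKM in sham mice (0.26, adjusted p = 0.687). Vehicle mice held both the lowest and the highest Cxcl9 level of these 2 groups.

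Of the other members Bst2 differed most clearly. Bst2 (tetherin, which holds budding viruses on the cell surface; GRCm39 chr8:71986899-71990100, minus strand) had 12.4, 20.1 and 39.8 FPKM in vehicle mice, against 9.31, 11.5 and 17.0 FPKM in sham mice. Only the top sham mice reached into the vehicle range (log2 fold change 0.98, 95% interval 0.57 to 1.40, adjusted p = 0.00084). The call held without each of the 20 mice in turn. Without the 4 vehicle libraries that held acinar markers the fold change was 0.63 (adjusted p = 0.0105). Trim30a (a ubiquitin ligase that restrains innate signalling; GRCm39 chr7:104058232-104114400, minus strand) had 3.19, 5.135 and 11.4 FPKM in vehicle and 2.93, 4.135 and 5.53 FPKM in sham mice (0.49, 95% interval 0.11 to 0.88, adjusted p = 0.045). This call lay at the threshold and was lost in 11 of 20 omissions of 1 mouse, and without the acinar libraries (0.49, adjusted p = 0.137). Markers of other cells moved in the same comparison. All 10 monocyte and macrophage markers rose, with a summed level of 305 to 878 CPM in vehicle and 154 to 210 CPM in sham mice, and all 7 neutrophil markers rose, at 44.0 to 4551 CPM in vehicle and 25.1 to 58.3 CPM in sham mice. Of 9 T cell markers 0 were called, and of 6 tested NK and cytotoxic markers 2 were higher. No marker was at 0 in all 10 mice of a group. In bulk tissue fewer or more cells of a type and less or more RNA per cell cannot be told apart, and the part of these markers in the Bst2 result was not tested.

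Several members that usually serve as readouts of interferon were not called. Isg15, a ubiquitin-like protein, had 4.3, 11.6 and 46.8 FPKM in vehicle and 5.79, 8.895 and 25.9 FPKM in sham mice, giving a log2 fold change of 0.65 (SE 0.44, adjusted p = 0.262). Irf7, the factor that amplifies interferon alpha production, had 9.28, 17.2 and 43.9 FPKM in vehicle and 14.3, 17.7 and 33.5 FPKM in sham mice (-0.05, adjusted p = 0.897). Rsad2 (viperin, an antiviral enzyme) had 0.55, 1.83 and 11.4 FPKM in vehicle and 1.19, 1.73 and 5.45 FPKM in sham mice (0.38, adjusted p = 0.558). In each of the 3 genes the vehicle group reached both lower and higher than the sham group, and vehicle replicates 4 and 9 shared the top of the Isg15 range. Irf1, the factor through which interferon gamma acts on many of its targets, had 19.5, 25.0 and 48.5 FPKM in vehicle and 21.8, 26.8 and 43.0 FPKM in sham mice (0.02, 95% interval -0.30 to 0.34, adjusted p = 0.931). Cxcl10, a chemokine of both pathways, had 0.32, 1.3 and 4.98 FPKM in vehicle and 0.44, 0.99 and 3.91 FPKM in sham mice (0.54, adjusted p = 0.374). Ifih1 (Mda5, a sensor of double-stranded RNA) leaned the other way at 6.68, 9.65 and 18.1 FPKM in vehicle and 9.72, 12.7 and 17.3 FPKM in sham mice, and missed the threshold (-0.31, adjusted p = 0.0798).

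**Figure D1:**
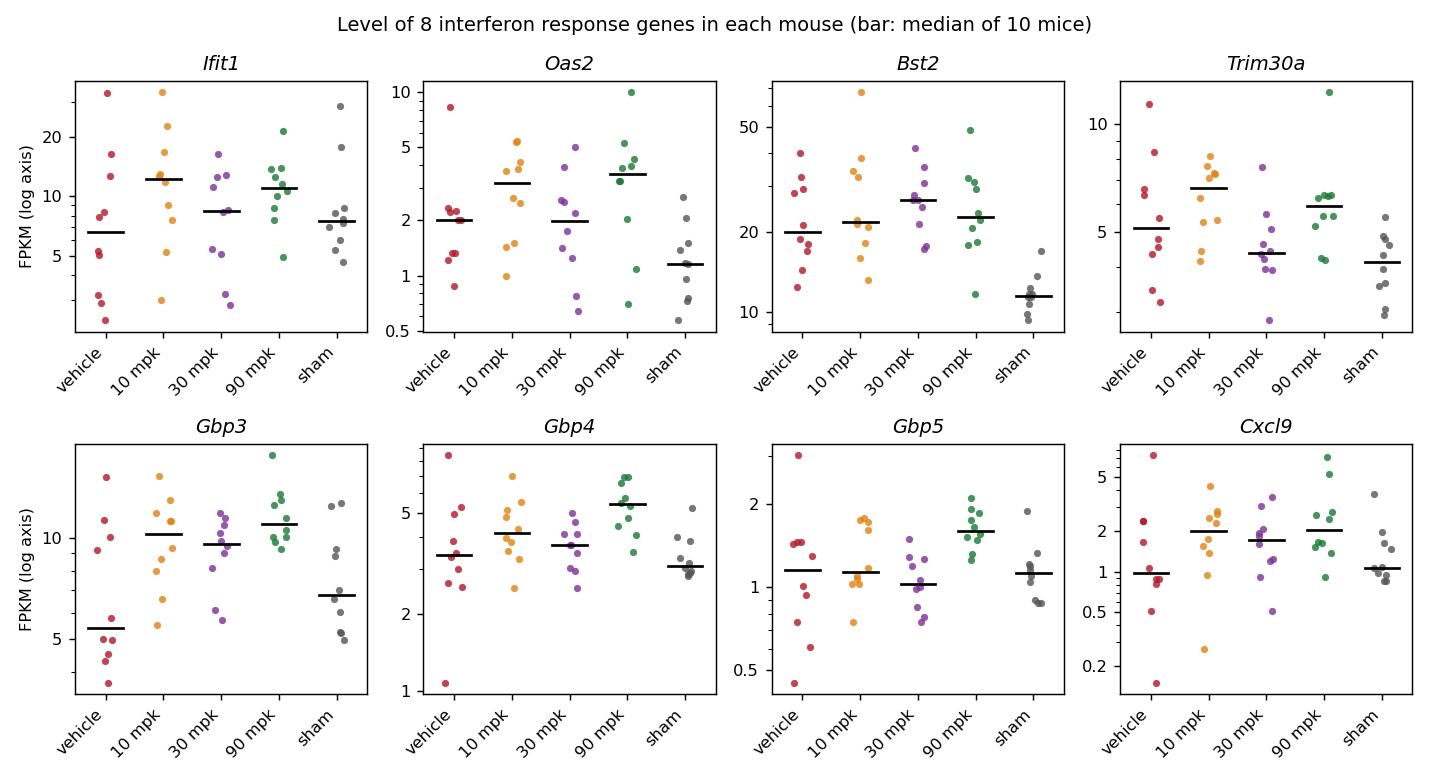
FPKM on a log axis of 8 interferon response genes, 1 point per mouse and a bar at the median of each group of 10, for TNBS mice given vehicle, 10, 30 or 90 mpk of A1007 and for sham mice. The Bst2 median is above the sham median in all TNBS groups, and only the 30 mpk mice do not overlap sham. Gbp4 and Gbp5 have their highest medians at 90 mpk, and Ifit1 and Cxcl9 overlap in all groups.

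**Figure D2:**
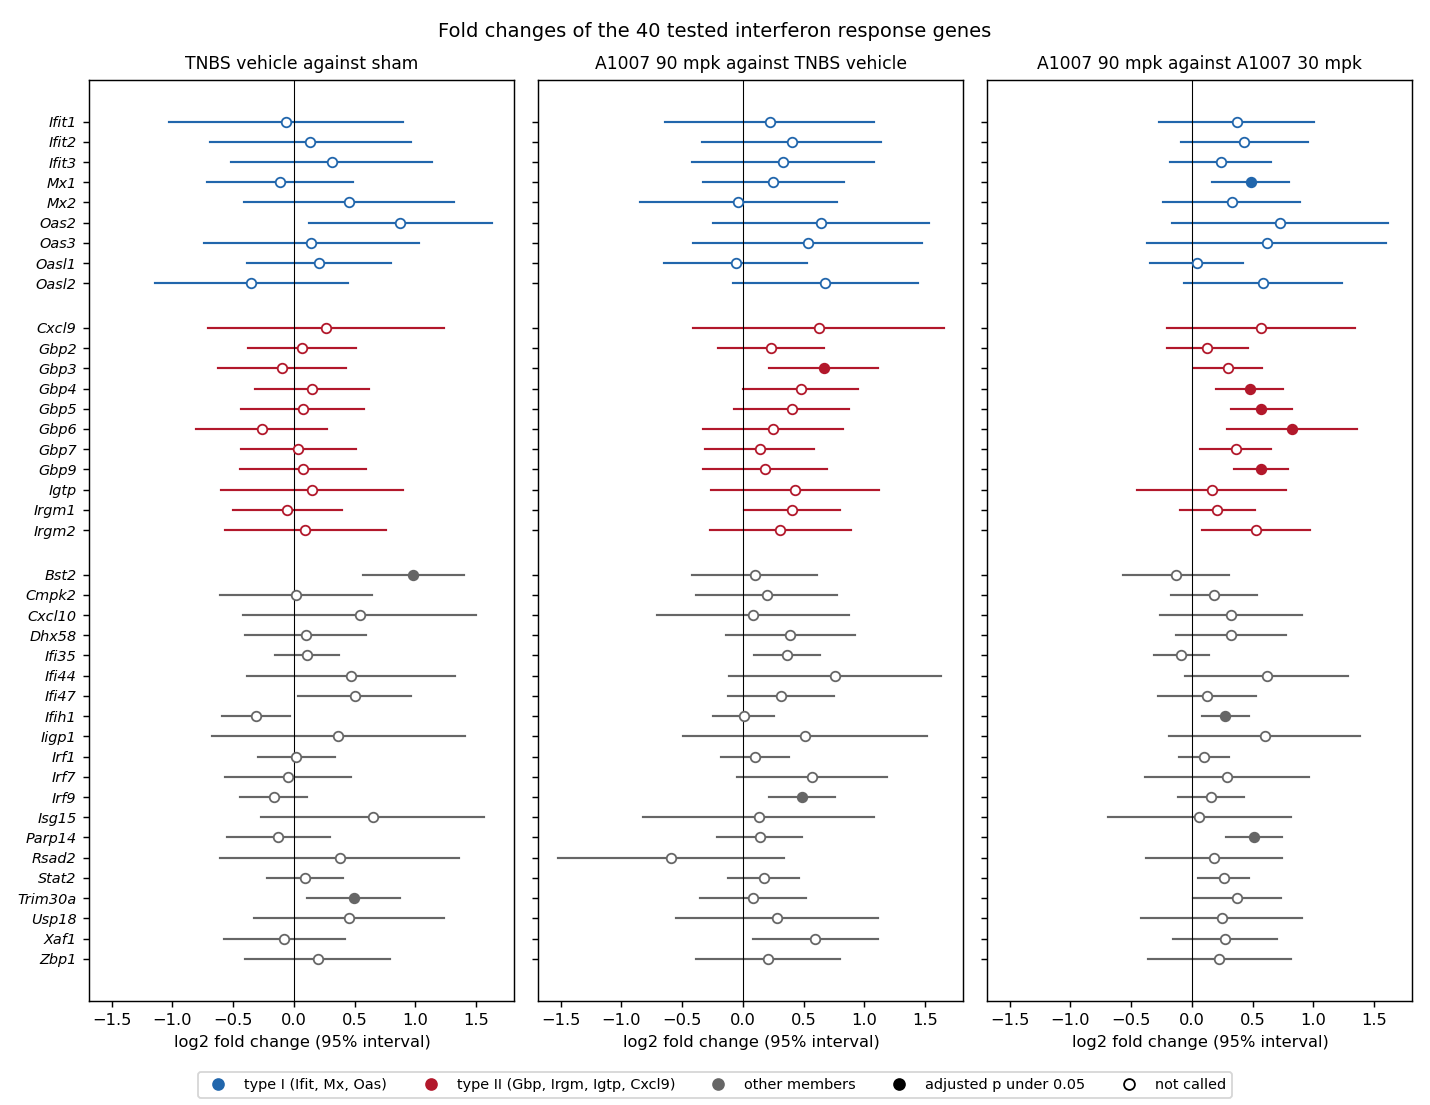
Log2 fold change with its 95% interval for the 40 tested members, grouped into type I genes (blue), type II genes (red) and other members (grey), in vehicle against sham, 90 mpk against vehicle and 90 mpk against 30 mpk. Filled points are called: 2 members in the first panel, 2 in the second and 7 in the third.

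The members varied between mice of the same group far more than most genes. The median SD of log2(FPKM + 0.1) between vehicle mice was 0.992 over type I genes and 0.708 over type II genes, against 0.316 over all 15799 genes with a mean of at least 1 CPM. Between sham mice, which had no colitis, it was 0.637 over type I genes, 0.343 over type II genes and 0.154 over all genes. Every group showed the same order, type I genes first, type II genes next and all genes last, and the 90 mpk group had the lowest median of the 5 groups for both classes, at 0.531 and 0.327.

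The mouse with the highest type II level was not always the mouse with the highest type I level. For each mouse a class level was taken as the mean over its genes of log2(CPM + 0.1) minus the sham mean. Vehicle replicate 4 had the highest level of all 9 tested type I genes in its group, with Ifit1 at 33.1 FPKM and Oas2 at 8.32 FPKM. Its level of Rsad2, from the other members, was 11.4 FPKM, whereas its Cxcl9 level was 1.67 FPKM. Its class level was 1.81 for type I and 0.53 for type II genes, with the type II level second of the 10 vehicle mice. Vehicle replicate 8 had the highest level of 9 of 11 type II genes, with Igtp at 38.1 FPKM, Gbp2 at 40.4 FPKM and Cxcl9 at 7.29 FPKM, whereas its Ifit1 level was 5.06 FPKM, below the group's median. Its class level was -0.19 for type I and 1.29 for type II genes. Vehicle replicate 9 had the lowest level of 6 of 11 type II genes, with Cxcl9 at 0.15 FPKM and Gbp9 at 0.46 FPKM, beside the group's highest Isg15 at 46.8 FPKM. Its class levels were 0.69 for type I and -1.24 for type II genes. Its library was 1 of the 4 vehicle libraries with acinar markers, at 561 CPM. These 3 mice were picked as extremes after their values were seen. Other vehicle mice were low in both classes, replicate 7 with class levels of -1.07 for type I and -0.57 for type II genes and replicate 2 with -1.02 and -0.63.

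In mice without colitis the highest type I and type II levels were also in 2 different mice. Sham replicate 2 had the highest level of all 9 type I genes in its group, with Ifit3 at 12.75 FPKM where the next sham mouse had 4.95 FPKM, and class levels of 1.32 for type I and 0.41 for type II genes, second of the sham mice in type II. Sham replicate 5 had the highest level of 9 of 11 type II genes, with Gbp2 at 25.6 FPKM where the next had 16.4 FPKM, and class levels of 0.28 for type I and 0.81 for type II genes. The chemokine Cxcl10 followed the type II mouse in both groups, at 4.98 FPKM in vehicle replicate 8 and 3.91 FPKM in sham replicate 5. So did Iigp1, an immunity-related GTPase of the Irgm family, at 22.6 FPKM and 12.7 FPKM, and Irf1, at 48.5 and 43.0 FPKM. In the dose groups this held only in part. At 30 mpk these genes peaked in replicate 5, while replicate 1 had the highest type II level. At 10 mpk Cxcl10 peaked in replicate 6, the type II mouse, and Iigp1 and Irf1 in replicate 9. At 90 mpk Cxcl10 and Irf1 peaked in replicate 9, the type II mouse, and Iigp1 in replicate 8.

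Marker levels in vehicle replicates 4, 8 and 9 and in sham replicate 5 did not share 1 direction. Summed neutrophil markers were 158 CPM in vehicle replicate 4, 723 CPM in replicate 8 and 4551 CPM in replicate 9, the highest of the group. In the same order summed macrophage markers were 346, 473 and 823 CPM, and epithelial sums were 23010, 22190 and 17580 CPM. Summed T cell markers were 29.7, 28.2 and 30.7 CPM in vehicle replicates 4, 8 and 9, near the group's median of 30.2 CPM, and NK and cytotoxic markers were 6.18, 9.59 and 9.02 CPM. In sham replicate 5 the T cell sum was 19.2 CPM, the lowest of its group. The part of any cell type in these mouse levels was not tested.

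Among mice given A1007 some had unlike levels of the classes and others like ones. At 10 mpk replicate 3 had the highest level of 8 of 9 type I genes, with class levels of 1.48 for type I and 0.19 for type II genes. At 30 mpk replicate 2 was low in both classes, lowest for 26 of 40 members, with class levels of -1.22 and -0.66 for type I and type II genes, and its acinar markers summed to 3002 CPM. At 90 mpk replicate 9 was first of its group in both classes and highest for 31 of 40 members, including all 9 type I genes (class levels 1.66 for type I and 0.91 for type II). Replicate 8 of the same group was lowest for 7 of 9 type I genes while its type II level was 0.90, with Igtp at 28.1 FPKM, the highest of the group, and Ifit1 at 4.92 FPKM, the lowest. Summed T cell, NK and macrophage markers in 90 mpk replicate 9 were its group's highest, at 92.41, 21.64 and 382.3 CPM. So were those in 10 mpk replicate 6, at 98.65, 44.07 and 641.8 CPM, where the type II level of 0.60 was also highest. In 10 mpk replicate 3 these sums were the group's lowest, at 19.37, 5.866 and 262.5 CPM. The part of these markers was not tested.

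**Figure D3:**
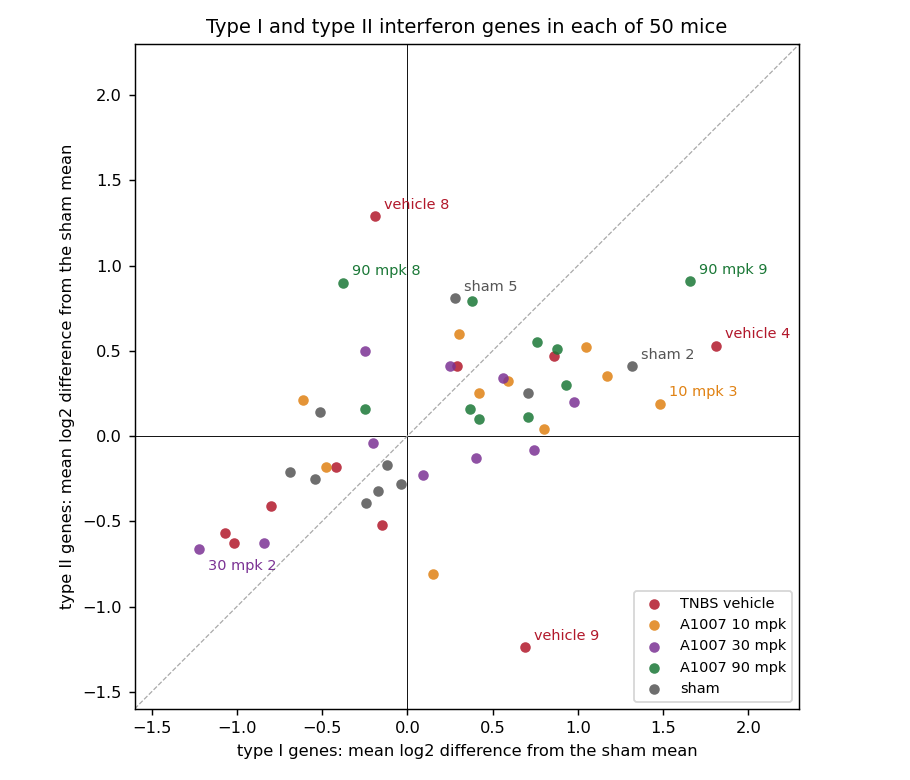
Mean log2 difference from the sham mean over 11 type II genes (vertical) against that over 9 type I genes (horizontal), 1 point per mouse and colour by group, with a dashed line of equal difference. Vehicle replicate 8 and 90 mpk replicate 8 lie high at type I levels below 0, and vehicle replicate 9 lies at a type II level of -1.24 with a type I level of 0.69.

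**Figure D4:**
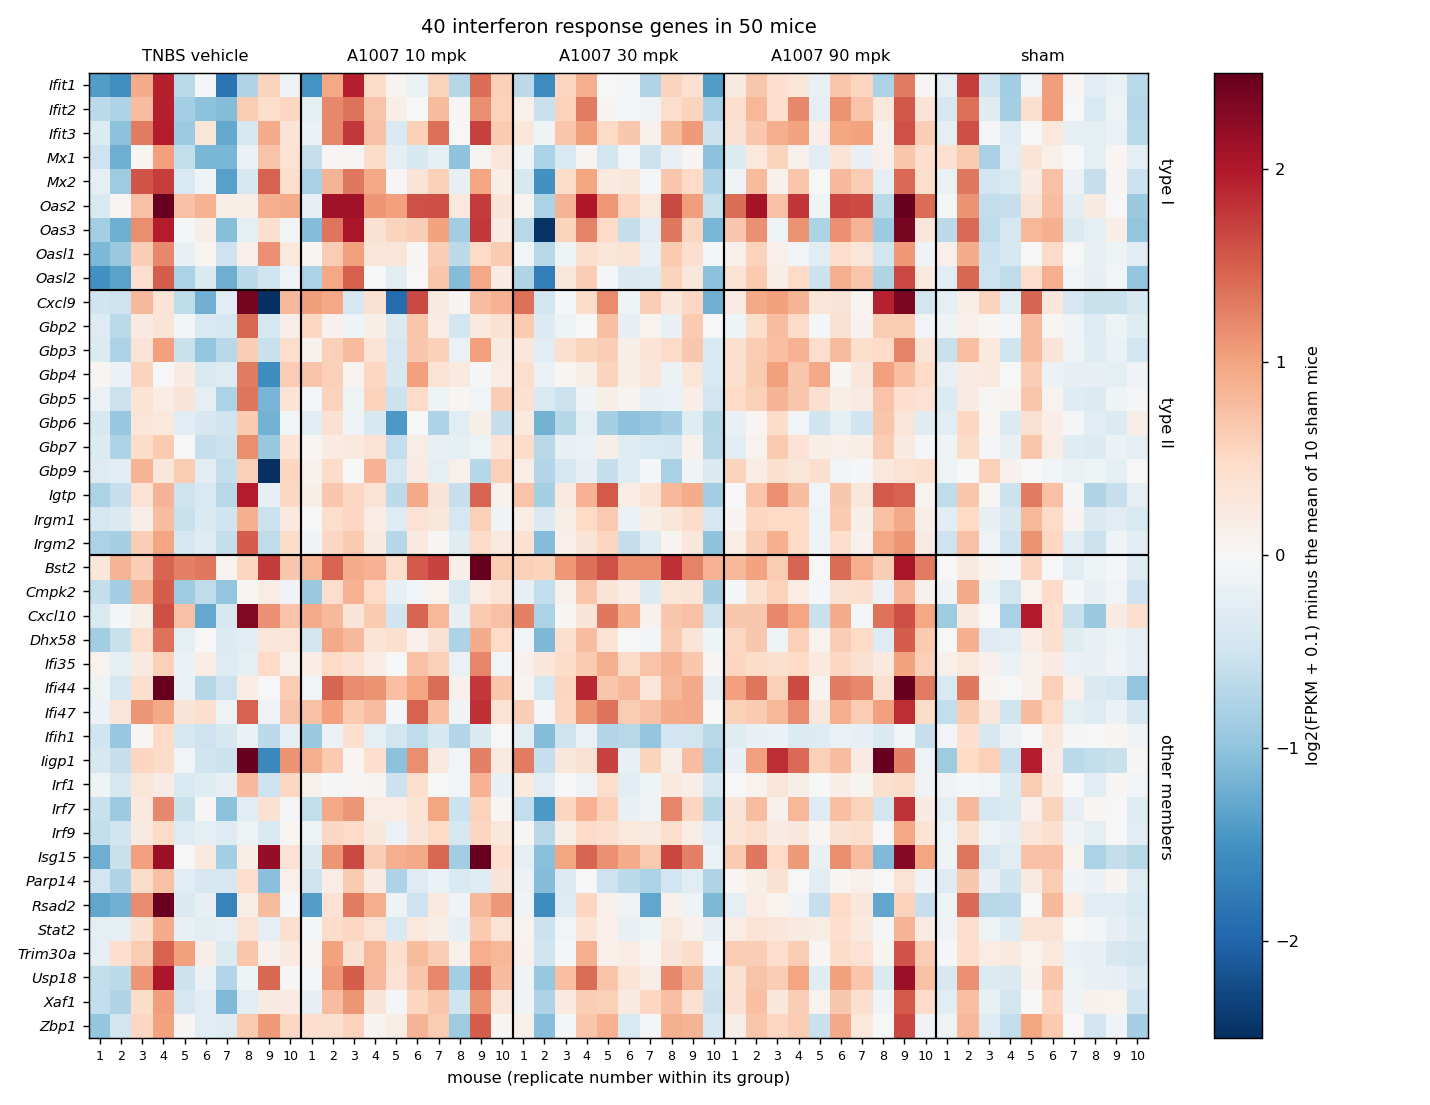
Colour map of log2(FPKM + 0.1) minus the sham mean for 40 members (down the page, in 3 classes) in 50 mice (across, in 5 groups), with the colour scale ending at 2.5 in either direction. Columns of single mice, such as vehicle replicate 4 and 90 mpk replicate 9, stand out.

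Against vehicle, A1007 changed few members. At 10 mpk 0 of 40 members were called, where 0.0714% of all genes were (0.0476% higher and 0.0238% lower), and 1 member had an unadjusted p under 0.05. At 30 mpk Ifi35, an interferon-induced protein that binds the signalling partner Nmi, was the only member called, higher, and 0 fell, where 30.8% of all genes were called, 13.9% higher and 16.8% lower. At 90 mpk Irf9 and Gbp3 were higher and 0 fell, where 18.1% of all genes were called, 7.53% higher and 10.6% lower. The share of members called was 0% at 10 mpk, 2.5% at 30 mpk and 5% at 90 mpk, at or below the share over all genes in each comparison. These 3 comparisons share the vehicle mice, and their fold changes are set side by side and not correlated.

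Ifi35 had a lowest, median and highest level of 10.7, 14.4 and 20.1 FPKM in vehicle mice, 12.0, 16.4 and 31.4 FPKM at 10 mpk, 13.7, 19.8 and 25.3 FPKM at 30 mpk and 15.8, 18.8 and 26.8 FPKM at 90 mpk. Every dose median lay above the vehicle median (log2 fold change 0.46, SE 0.14, adjusted p = 0.0206 at 30 mpk, and 0.36, adjusted p = 0.0574 at 90 mpk), and the 30 mpk call held without each mouse in turn. Irf9, the DNA-binding part of the type I complex, had 4.84, 6.2 and 10.6 FPKM in vehicle mice, 5.52, 9.275 and 10.9 FPKM at 10 mpk, 4.6, 8.68 and 10.4 FPKM at 30 mpk and 7.41, 9.51 and 14.8 FPKM at 90 mpk. Its fold change was 0.49 at 90 mpk (SE 0.13, adjusted p = 0.0136), held without each mouse in turn, and was 0.40 without the acinar libraries (adjusted p = 0.141). Gbp3 had 3.71, 5.405 and 15.2 FPKM in vehicle mice, 5.51, 10.3 and 15.2 FPKM at 10 mpk, 5.69, 9.615 and 11.9 FPKM at 30 mpk and 9.29, 11.03 and 17.6 FPKM at 90 mpk. All 90 mpk mice stood above the vehicle median, and the call (0.66, SE 0.22, adjusted p = 0.038) was lost in 11 of 20 omissions of 1 mouse and without the acinar libraries (0.34, adjusted p = 0.37). Over dose steps 0 to 3 in the 40 TNBS mice the same 2 genes were called, Irf9 with 0.14 per step (adjusted p = 0.032) and Gbp3 with 0.19 per step (adjusted p = 0.0344), where 19.5% of all genes were called, 7.04% higher and 12.5% lower. Neither kept its call without the acinar libraries, and Gbp3 lost it without vehicle replicate 6 alone. The count at 90 mpk also depended on single vehicle mice: it was 7 members without vehicle replicate 4 and 8 members without vehicle replicate 8. The share of all genes called in these refits is not given here, so the counts are not read as particular to the members.

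The medians of the classes at the 3 doses against vehicle were 0.40, -0.08 and 0.33 for type I genes and 0.08, 0.01 and 0.40 for type II genes, in order of dose, against -0.005, -0.006 and -0.007 for all genes. At 90 mpk all 11 type II genes and 7 of 9 type I genes had a fold change above 0. The type I medians at the lower doses depended on 1 mouse, being 0.79 at 10 mpk and 0.30 at 30 mpk without vehicle replicate 4. Without the acinar libraries the type II medians were -0.18, -0.36 and 0.12 at 10, 30 and 90 mpk. The genes that were higher in vehicle than in sham mice were not called at any dose against vehicle. Bst2 had fold changes of 0.28, 0.235 and 0.10 at 10, 30 and 90 mpk, with a 95% interval of -0.42 to 0.61 at 90 mpk, and Trim30a had 0.115, -0.28 and 0.08. Neutrophil and macrophage markers did fall at 90 mpk, 7 of 7 and 9 of 10 of them, to summed levels of 36.1 to 79.5 CPM and 230 to 382 CPM, against 44.0 to 4551 CPM and 305 to 878 CPM in vehicle mice.

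The clearest dose difference among the members lay between 90 and 30 mpk. At 90 mpk 7 of 40 members were higher than at 30 mpk and 0 were lower, where 18.9% of all 16718 genes tested were called, 7.6% higher and 11.3% lower. Of the 7 genes 4 were Gbp genes, 1 a type I gene (Mx1) and 2 other members (Parp14 and Ifih1). Of the 40 members 38 had a fold change above 0, with a median of 0.43 for type I genes, 0.48 for type II genes and 0.02 for all genes. The members are not independent of each other, and the share of members higher, 17.5%, is read against that of all genes only as a description.

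Gbp9 had 2.89, 3.86 and 4.51 FPKM (lowest, median, highest) at 90 mpk and 1.7, 2.415 and 3.49 FPKM at 30 mpk, so that only the top of the 30 mpk group reached the 90 mpk group. Its log2 fold change between 90 and 30 mpk was 0.57 (95% interval 0.34 to 0.79, adjusted p = 0.00118). Gbp5 had 1.26, 1.605 and 2.11 FPKM at 90 mpk and 0.75, 1.03 and 1.5 FPKM at 30 mpk (0.57, 95% interval 0.32 to 0.82, adjusted p = 0.00265). Gbp4 had 3.49, 5.395 and 6.93 FPKM at 90 mpk and 2.54, 3.725 and 4.97 FPKM at 30 mpk (0.48, 95% interval 0.20 to 0.75, adjusted p = 0.0152). Each of these 3 calls held without any 1 of the 20 mice, and the 2 dose groups overlapped only at their edges for Gbp9 and Gbp5. Gbp6 had 0.19, 0.275 and 0.56 FPKM at 90 mpk and 0.08, 0.14 and 0.38 FPKM at 30 mpk (0.83, SE 0.26, adjusted p = 0.028), and lost its call in 6 of 20 such omissions. Gbp4, Gbp6 and Gbp9 lie in 1 cluster on GRCm39 chromosome 5, between 105225496 and 105441564, and Gbp5 lies in another on chromosome 3 with Gbp2, Gbp3 and Gbp7, between 142199739 and 142343769. On chromosome 3 the neighbours of Gbp5 were not called, Gbp2 at 0.13, Gbp3 at 0.30 and Gbp7 at 0.36.

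Parp14, an ADP-ribosyltransferase, had 7.99, 9.975 and 12.5 FPKM at 90 mpk and 4.46, 6.82 and 9.55 FPKM at 30 mpk (log2 fold change 0.51, 95% interval 0.28 to 0.74, adjusted p = 0.00327), and its call held without any 1 mouse. Mx1, the nuclear antiviral GTPase that many inbred mouse strains carry in a defective form, had 1.76, 2.6 and 3.7 FPKM at 90 mpk and 1.06, 1.835 and 2.38 FPKM at 30 mpk (0.48, SE 0.15, adjusted p = 0.0297). Ifih1 had 8.64, 10.8 and 12.3 FPKM at 90 mpk and 6.03, 8.465 and 11.5 FPKM at 30 mpk (0.28, SE 0.10, adjusted p = 0.0443). The last 2 calls were the least steady, lost in 5 of 20 omissions for Mx1 and 14 of 20 for Ifih1. The type I genes Ifit1 (0.37) and Oas2 (0.73) were not called, nor was Isg15 (0.06) of the other members. Cxcl9 had 0.57 with a 95% interval of -0.20 to 1.34. A fit on all 50 mice, which estimates 1 spread for all groups, called 0 of the 40 members in this comparison (adjusted p of 0.0844 to 0.227 for these 7), and without the acinar libraries Gbp5, Gbp9 and Parp14 kept their calls.

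Sensors of nucleic acids form a list of 11 genes outside the members. Of the 11, 5 were higher at 90 than at 30 mpk and 0 were lower, and they are named here after their values were seen. Among all genes tested in that comparison 7.6% were called higher and 11.3% lower. Rigi, the sensor of short RNA ends, had a median of 6.66 FPKM at 90 mpk and 4.92 FPKM at 30 mpk (log2 fold change 0.45, SE 0.08, adjusted p = 0.000664). Adar, the RNA-editing enzyme that hides the cell's own double-stranded RNA, had medians of 6.785 FPKM at 90 mpk and 5.12 FPKM at 30 mpk (0.34, adjusted p = 0.00109). Tlr3, Tlr9 and the RNA-activated kinase Eif2ak2 had 0.29, 0.94 and 0.30. With all 50 mice in 1 fit Rigi kept its call and Adar (adjusted p = 0.0747), Tlr3 (adjusted p = 0.0875), Tlr9 (adjusted p = 0.0948) and Eif2ak2 (adjusted p = 0.145) lost theirs, and without the acinar libraries Tlr9 (adjusted p = 0.061) and Eif2ak2 (adjusted p = 0.14) lost theirs. Against vehicle, 7 of the 11 were lower at 30 mpk and 3 at 90 mpk, among them Tlr7, Sting1 and Cgas. Among all genes tested 16.8% were called lower than in vehicle mice at 30 mpk and 10.6% at 90 mpk. Without the acinar libraries Sting1 was called at neither dose (-0.28, adjusted p = 0.094 at 30 mpk) and Cgas was not called at 90 mpk (-0.30, adjusted p = 0.0833). Tlr7, an endosomal RNA receptor of myeloid cells and plasmacytoid cells, fell by 0.92 (SE 0.17, adjusted p = 0.000662) at 30 mpk and by 0.82 (SE 0.16, adjusted p = 0.00172) at 90 mpk, and was called at both doses without the acinar libraries (-0.62 at 30 mpk and -0.49 at 90 mpk). Between 90 and 30 mpk 1 of 10 macrophage markers was called, lower, as was 1 of 5 tested neutrophil markers. Of 10 colon epithelium markers 1 was higher and 3 were lower, and 1 of 6 endothelial markers was higher. Of 9 T cell, 7 tested NK and cytotoxic and 6 dendritic cell markers 0 were called. All 6 dendritic cell markers lay above 0, with a median log2 fold change of 0.22.

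The treated groups were also set against sham mice, with each count of members beside the share of all genes called. Because the spread between mice differed between groups, counts from different comparisons cannot be compared directly. At 10 mpk 8 members were higher and 0 lower, where 37.2% of all genes were called, 22% higher and 15.2% lower. At 30 mpk 3 were higher and 4 lower, where 61% were called, 31.3% higher and 29.8% lower, and at 90 mpk 13 were higher and 1 lower, where 47.3% were called, 24.6% higher and 22.7% lower. Of these 3 counts of higher members only the one at 90 mpk, 32.5% of the members, exceeded the share of all genes called higher. In either direction 35% of the members were called at 90 mpk, below the 47.3% of all genes. The count of higher members at 90 mpk was 8 with all 50 mice in 1 fit, where Gbp5 (adjusted p = 0.0638), Gbp9 (adjusted p = 0.348), Irf9, Xaf1 and Usp18 lost their calls. Over all genes that fit called 4399 in either direction, against 7965 in the main test. Bst2, Ifi35 and Ifi47 were higher at every dose. Bst2 stood at 13.2, 21.9 and 67.5 FPKM (lowest, median, highest) at 10 mpk, at 17.4, 26.5 and 41.7 FPKM at 30 mpk and at 11.7, 22.95 and 48.8 FPKM at 90 mpk. Its log2 fold changes were 1.27, 1.2 and 1.08 at 10, 30 and 90 mpk (adjusted p = 0.00044, 4.37e-07 and 0.000193). All 30 mpk mice stood above the highest sham mouse, at 17.0 FPKM. Ifi47, a GTPase of the Irgm family, had 0.79, 0.68 and 0.81 at 10, 30 and 90 mpk.

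At 90 mpk the called genes came from each class. Oas2 was the only type I gene, at 0.7, 3.565 and 9.97 FPKM in 90 mpk mice and 0.57, 1.16 and 2.67 FPKM in sham mice, giving a log2 fold change of 1.52 (95% interval 0.68 to 2.35, adjusted p = 0.00454). It was also called at 10 mpk, where it had 1.0, 3.19 and 5.4 FPKM (1.29, adjusted p = 0.00452). Of the type II genes Gbp3 (0.57), Gbp4 (0.63), Gbp5 (0.47) and Gbp9 (0.26) were higher. Of the other members Ifi44 (1.23) rose most, followed by Bst2 (1.08), Ifi47 (0.81) and Usp18, the protease that removes Isg15 from proteins (0.735, adjusted p = 0.0495). The Usp18 call was lost in 15 of 20 omissions of 1 mouse, with all 50 mice in 1 fit (adjusted p = 0.115) and without the acinar libraries (adjusted p = 0.0877). The count of higher members ran from 10 to 21 without 1 mouse, with 21 without sham replicate 2 and 20 without sham replicate 5. These counts also stand without the share of all genes called in the same refits. The genes lower than in sham were Ifih1 at 90 mpk, where it fell by 0.31 (log2, adjusted p = 0.0056), and at 30 mpk Ifih1, Gbp6, Parp14 and Gbp9. At 30 mpk Ifih1 fell by 0.585 (adjusted p = 9.89e-05), and Gbp6 fell by 0.845 (adjusted p = 0.00396). The remaining dose pairs, 30 against 10 mpk and 90 against 10 mpk, had 0 members called, where 2.52% of all genes (0.477% higher and 2.05% lower) and 0.636% (0.143% higher and 0.493% lower) were called, and 4 and 1 members with an unadjusted p under 0.05. Against 10 mpk, 35 of 40 members lay below 0 at 30 mpk and all 11 type II genes lay above 0 at 90 mpk.

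Signalling genes upstream of the members were followed as well. Of 15 signalling and regulator genes 3 rose and 1 fell in vehicle against sham mice. Among all genes tested in that comparison 18.1% were called higher and 14.6% lower. Socs3, a feedback inhibitor of Stat3 signalling, had 6.04, 17.2 and 75.7 FPKM (lowest, median, highest) in vehicle and 3.39, 4.74 and 9.9 FPKM in sham mice, giving a log2 fold change of 2.31 (SE 0.44, adjusted p = 0.000506). Stat3 rose by 0.54 (SE 0.10, adjusted p = 0.000197) and Irf5, a factor of macrophage activation, by 0.65 (SE 0.14, adjusted p = 0.00169), and Irf2, a repressor at the ISRE, fell by 0.27 (SE 0.07, adjusted p = 0.00395). At 90 mpk Stat3 fell by 0.545 (adjusted p = 0.00106) and Socs3 fell by 2.08 (adjusted p = 0.00286) against vehicle. Among the sensors Sting1, the adaptor of the DNA-sensing pathway, rose by 1.2 (SE 0.17, adjusted p = 1.62e-05) in vehicle against sham mice and Tlr7 rose by 1.10 (SE 0.15, adjusted p = 2.01e-05), while Tbk1 and Mavs fell by 0.25 and 0.26. Il18, a cytokine that drives interferon gamma production, rose by 0.61 (SE 0.17, adjusted p = 0.00809) in vehicle mice and fell by 0.59 (SE 0.17, adjusted p = 0.0212) at 90 mpk against vehicle. Without the acinar libraries the fold changes in vehicle against sham mice were 1.04 for Socs3 (adjusted p = 0.0137), 0.33 for Stat3, 0.41 for Irf5 and -0.15 for Irf2, all still called, and that of Stat3 at 90 mpk against vehicle was -0.34 (adjusted p = 0.00805). The Socs3 and Sting1 changes at 90 mpk were not called without the acinar libraries, at -0.85 (adjusted p = 0.0601) and -0.41 (adjusted p = 0.127).

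Whether mice with more Ifng had more of its target Cxcl9, or more of Irf7 (1 of the other members), was asked within each group. Each group held 10 mice, and the 10 relations used log2(CPM + 0.1). For Cxcl9, Pearson's r was 0.33 in vehicle mice (permutation p = 0.36), 0.42 at 10 mpk (p = 0.229), 0.52 at 30 mpk (p = 0.128), 0.48 at 90 mpk (p = 0.199) and 0.40 in sham mice (p = 0.274). Spearman's rho was 0.27, 0.49, 0.40, 0.17 and 0.21 in the same order (permutation p between 0.147 and 0.648). For Irf7, r ran from -0.30 in vehicle mice to 0.53 at 30 mpk and rho from -0.33 in sham mice to 0.44 at 30 mpk, with the lowest permutation p at 0.115. All 10 adjusted p were at least 0.548 for r and 0.849 for rho (permutation, two-sided). Without the 2 mice farthest from the group's median Ifng the r for Cxcl9 was 0.09 in vehicle mice, 0.41 at 10 mpk, 0.42 at 30 mpk, 0.31 at 90 mpk and -0.29 in sham mice. With 0 to 7 Ifng counts per library, no relation was detectable at this depth.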

How the data were processed

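The authors deposited 1 table with raw read counts per gene and mouse, FPKM values, exon lengths and coordinates on GRCm39. The submitters' processing notes name the tools DESeq2, HTSeq 0.6.1, HISAT2 2.2.1 and cutadapt 1.9.1 and the build GRCm39. For the tools' roles, the strand setting and reads matching more than 1 gene: not given in the sources used here. Recomputed FPKM lay within 1% of the deposited FPKM for 99.997% of values with at least 500 counts. The reference is that of another strain than BALB/c.

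The counts were tested in R 4.3.3 with edgeR 4.0.16 (quasi-likelihood test, robust, TMM scaling, filterByExpr with a count minimum of 10) on the 20 mice of each of 10 pairs of groups, because the spread between mice differed widely between groups, and on 40 TNBS mice for dose steps 0, 1, 2 and 3. Every adjusted p of a gene is from edgeR with Benjamini-Hochberg adjustment over all genes tested. The step was also run on simulated counts that gave both groups of a pair the same spread, so that run does not check unequal spread. Members, lists and named genes were chosen with earlier results of these data known. All members could be named, and values per group were given for 14 members taken from the known core of the response, for the 3 members of each class with the smallest p in vehicle against sham, and for the members that were called. Listed genes of other kinds were named when they were among the 4 smallest p of their list. Alternatives were DESeq2 1.42.0, upper-quartile scaling, no filter, all 50 mice in 1 fit, limma 3.58.1 on log2 FPKM (pseudocount 0.1 or 1) or with quality weights, a replicate block and omission of single mice. The labels do not say how mice were caged or bred, and p-values measure the spread between these mice. Relations used SciPy 1.17.1 with 100000 resamples. A gene of the signalling list is not reported here.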

Additional observations from a re-analysis of the deposited data

Results flagged for a closer look

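For 20 members with values in every group, each group of 10 mice was checked for 1 mouse whose gap to the next, as a share of the group's range on the log2 scale, exceeded Dixon's 95% critical value. Of 100 checks 7 found one, and chance gives about 1 in 20. Vehicle replicate 4 stood apart for Oas2 (8.32 FPKM) and vehicle replicate 8 for Gbp2 (40.4 FPKM). At 90 mpk replicate 9 stood apart for Trim30a (12.3 FPKM). Sham replicate 2 stood apart for Ifit3 (12.75 FPKM), and sham replicate 5 for Gbp2 (25.6 FPKM), Gbp5 (1.9 FPKM) and Cxcl10 (3.91 FPKM). The number found is close to what chance gives.

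The effects of 90 and 30 mpk, each against the same vehicle mice, differed for 7 members in the test of 90 against 30 mpk. The log2 difference was 0.83 for Gbp6, 0.57 for Gbp5, 0.57 for Gbp9, 0.51 for Parp14, 0.48 for Mx1, 0.48 for Gbp4 and 0.28 (0.275) for Ifih1.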

How the results depend on the processing

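Of 385 alternatives to the 43 called results of members, 54 lost the call, 0 reversed direction and the rest kept it. Leaving out 1 mouse kept 436 of 522. It was done for 6 of the 10 pairs of groups, and for the trend only without vehicle replicate 6. The calls at 10 and 30 mpk against sham were not checked in this way. In vehicle against sham mice 1 member was higher with no low-count filter, with limma on FPKM at either pseudocount and without the acinar libraries, a setting chosen after seeing the data. Leaving out 1 mouse gave 1 to 3 higher and 0 to 1 lower. At 30 mpk against vehicle 2 were higher and 4 lower with quality weights and without the acinar libraries, and 1 to 4 higher and 0 to 1 lower without 1 mouse. At 90 mpk against vehicle 1 was higher with no filter, 0 without the acinar libraries and 1 to 8 without 1 mouse. Against sham, at 10 mpk 5 were higher with no filter and without the acinar libraries, and 1 lower with limma at either pseudocount and with quality weights. At 30 mpk 5 were higher without the acinar libraries. At 90 mpk 8 were higher and 0 lower with all 50 mice in 1 fit, and 10 to 21 higher without 1 mouse. At 30 against 10 mpk 4 were lower with quality weights. At 90 against 30 mpk 0 were higher with all 50 mice in 1 fit, 3 without the acinar libraries and 4 to 9 without 1 mouse. The trend had 0 without the acinar libraries and 1 without vehicle replicate 6. For omissions of 1 mouse the counts of members stand without the share of all genes called in the same fits.

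The type II median without the acinar libraries was -0.18, -0.36 and 0.12 at 10, 30 and 90 mpk against vehicle and 0.03 in the trend. With quality weights it was 0.15 at 90 mpk against vehicle and 0.34 at 10 mpk against sham. Without 1 mouse the type I median ran from 0.24 to 0.79 at 10 mpk and from -0.25 to 0.30 at 30 mpk against vehicle. The fold change of Ptpn2 at 30 mpk against vehicle turned to 0.181 without the acinar libraries. The cause of these changes was not tested.

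Replicate numbers did not pair the mice: of 10 same-numbered pairs per comparison 1 to 6 correlated over 0.1, and 0 to 3 correlated best with their own number. The replicate block gave 2 higher and 1 lower members at 30 mpk and 5 higher at 90 mpk against vehicle, and moved no other count of members by over 1.5 times.

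Over all genes, 12 were called at 10 mpk against vehicle, against 329 with DESeq2, 20 with upper-quartile scaling, 1749 with all 50 mice, 3 and 28 with limma at pseudocounts 0.1 and 1, more with quality weights than with DESeq2, 5 with the block, 2 without the acinar libraries and 2 to 415 without 1 mouse. At 30 mpk against vehicle quality weights called 7979 and the main test 5131. With all 50 mice the count at 90 mpk against sham was 4399 (7965 in the main test) and at 90 against 30 mpk 437 (3154). At 30 against 10 mpk, where 423 were called, DESeq2 called 943, no filter 173, all 50 mice 869, quality weights 3733 and the block 134. At 90 against 10 mpk, where 107 were called, DESeq2 called 434, no filter 41, limma 16 at either pseudocount, quality weights 198, the block 2 and omission of the acinar libraries 6. The trend called 3437 genes, and 1078 without the acinar libraries. Low depth limits the ligands and Oas1a.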
